A study of Mus musculus with 9 samples.

Results

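The synaptonemal complex is the protein ladder that forms between paired homologous chromosomes in meiotic prophase, and 9 genes of this ladder and of the chromosome axis are described here: Sycp1, Sycp2, Sycp3, Syce1, Syce2, Syce3, Tex12, Hormad2 and Trip13. They were taken by name as 9 of the 32285 genes of the deposited tables. No expression threshold entered the choice, which was made with earlier results of these data known. All 9 passed the filter on low counts in each comparison reported below.

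Single cell RNA-seq was performed on whole testis of 9 male C57BL/6 mice at PND24 (postnatal day 24), 1 library per mouse, and the study's methods name the background C57BL/6 J. The 4 Control mice were littermates or non-littermates of the cKO mice, and the labels give no further genotype for them. The 2 mice of NELF-B cKO and the 3 of TDP-43 cKO carried Stra8-iCre, a recombinase expressed in spermatogonia (SG), with 1 floxed and 1 null allele of Nelfb or of Tardbp, the gene for TDP-43. NELF-B is a subunit of the complex that holds RNA polymerase II in its paused state, and TDP-43 is a DNA and RNA binding protein. Somatic cells of these testes keep the floxed alleles unrecombined, as Stra8-iCre acts in the germ line.

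In background terms, each chromosome axis is laid down in leptotene (L) spermatocytes as a core of cohesin, SYCP2 and SYCP3, on which the HORMA domain proteins HORMAD1 and HORMAD2 mark the stretches that are not yet paired. In zygotene (Z), SYCP1 forms transverse filaments that zip the axes of homologous chromosomes together, and SYCE1, SYCE2, SYCE3 and TEX12 form the central element in which these filaments meet. TRIP13 is an AAA+ ATPase that removes HORMA domain proteins from paired axes. The complex is complete in pachytene (P) and comes apart in diplotene (D), before the divisions that give round spermatids (RS), while preleptotene (pL) precedes leptotene.

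Sequences are shown for members whose promoter window held the E-box letters CACGTG, because these windows differed in that respect from those of the other members and from most promoters of the genome. The windows searched hold the 250 bases before a RefSeq transcription start on the GRCm38.p6 build, and are printed 5′ to 3′ on the strand of the gene, with matched letters in capitals. For Sycp1, Sycp3 and Tex12 the sequence runs up to the annotated start of the gene. Sycp1 (chr3:102936101-102936350, minus strand) and Sycp3 (chr10:88459337-88459568, plus strand) held CACGTG alone, once and at a pair of places. Tex12 (chr9:50561326-50561518, minus strand) also held GGCGGGAA, letters bound by E2F factors. For Syce2, whose window lies partly inside the annotated gene, a stretch of 30 bases from inside the gene (chr8:84872210-84872239, plus strand) is shown. It leaves out the CACGTG of this window, and in it GGCGGGAA overlaps a match, on the opposite strand, of CNCCTCAG, letters bound by STRA8, the factor that switches on meiotic genes.
Sycp1 promoter: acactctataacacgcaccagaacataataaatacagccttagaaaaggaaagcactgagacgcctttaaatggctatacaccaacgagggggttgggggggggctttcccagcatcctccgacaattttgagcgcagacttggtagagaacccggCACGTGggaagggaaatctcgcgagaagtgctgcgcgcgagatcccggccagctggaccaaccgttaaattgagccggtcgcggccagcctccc
Sycp3 promoter: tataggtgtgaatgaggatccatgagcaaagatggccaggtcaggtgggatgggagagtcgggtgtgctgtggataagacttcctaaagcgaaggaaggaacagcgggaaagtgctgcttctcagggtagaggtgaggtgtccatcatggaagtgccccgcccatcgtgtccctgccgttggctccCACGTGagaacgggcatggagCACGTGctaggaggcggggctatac
Tex12 promoter: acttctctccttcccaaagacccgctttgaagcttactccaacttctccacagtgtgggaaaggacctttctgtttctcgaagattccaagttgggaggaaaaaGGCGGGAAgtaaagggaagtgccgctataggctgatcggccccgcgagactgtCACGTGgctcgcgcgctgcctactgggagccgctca
Syce2 site: cagagggcgCTGAGGCGGGAAaagacggaa

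Of the 11 RefSeq windows that matched the 9 members, 4 held CACGTG (36.4%), against 6.02% of all 32851 mouse windows of this length. The first base of the match lay 94 bases before the RefSeq start in Sycp1, 64 and 43 in Sycp3, 88 in Syce2 and 93 in Tex12. CNCCTCAG was found in windows of Syce2 and Hormad2, against 6.42% of all windows, and GGCGGGAA in windows of Syce2 and Tex12, against 1.86%. No window of Sycp2, Syce1, Syce3 or Trip13 held any of these letters on either strand. Such matches describe letters and do not measure binding.

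On the GRCm38 build with the GENCODE M21 annotation, Sycp1 lies at chr3:102818499-102936100, Sycp2 at chr2:178345293-178407685, Sycp3 at chr10:88459569-88473236 and Syce1 at chr7:140777229-140787852. Syce2 lies at chr8:84872111-84888221, Syce3 at chr15:89390174-89410503, Tex12 at chr9:50556819-50561325, Hormad2 at chr11:4345814-4441105 and Trip13 at chr13:73911347-73937784. Syce2 and Sycp3 are on the plus strand and the other 7 on the minus strand. Only Trip13 overlapped another annotated gene on its own strand, Gm25197. Whether exonic reads alone were counted is not given in the sources used here.

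The libraries held 119203347 to 159407373 unique molecular identifiers (UMIs), each of which counts 1 captured transcript at its 3′ end, and 45132 barcodes passed the filter of over 1000 genes and under 10% mitochondrial UMIs. Clusters of these barcodes were named from other marker genes, with the 9 members left out of both the clustering and the naming, and 24909 cells received a cell type. The stages still come from other genes of the same cells, so a rise of a member between stages is a description of the same transcriptomes. Levels are given in CPM, counts per 1000000, that is UMIs of a gene for every 1000000 UMIs of all cells of a stage in 1 mouse. As UMIs are 3′ tags, CPM carries no gene length. In cKO testes, any germ cell that still showed a Nelfb or Tardbp UMI, respectively, was removed, a step taken from the methods of the study. It removed 188 of 3145 germ cells of NELF-B cKO and 3089 of 5741 of TDP-43 cKO. Over SG, pL, L and Z cells before this removal, Nelfb was at 63.2 to 74.0 CPM in Control mice and at 4.31 and 4.98 CPM in NELF-B cKO mice, and Tardbp at 95.6 to 135 CPM in Control mice and 34.2 to 50.9 CPM in TDP-43 cKO mice.

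In Control testis the members did not share 1 peak stage. Sycp1, Sycp2, Sycp3, Syce3 and Hormad2 were highest in Z, Syce2 and Tex12 in L, Trip13 in pL and Syce1 in D. The peak level was 3.80-fold (Trip13) to 19.5-fold (Sycp3) above the mean of the somatic cell type with the highest reading of that gene. Such somatic readings are the background that free RNA and mixed droplets can leave. A stage at or below them is read here as background, which does not tell it apart from low expression in the germ cells.

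Among the axis genes, Sycp3 reached 3075 ± 277 CPM in Z (SD, n = 4 Control mice), after 265 ± 18.8 CPM in SG, 413 ± 54.5 CPM in pL and 1681 ± 151 CPM in L. It stood at 876 ± 87.7 CPM in P and 377 ± 17.9 CPM in D, where the mice overlapped those of pL, and at 85.2 ± 18.7 CPM in RS, below the Sertoli cell reading of 157 ± 15.6 CPM. Sycp2, whose protein pairs with SYCP3 in the axis core, followed the same order in its upper stages, with 1288 ± 103 CPM in Z, 1007 ± 108 CPM in L and 771 ± 34.4 CPM in P. Its pL level of 249.6 ± 39.8 CPM overlapped that of D at 296 ± 21.4 CPM, and SG and RS stood at 100.2 ± 13.9 and 80.9 ± 17.3 CPM, below the highest somatic reading of 112 ± 31.0 CPM in myoid cells. Hormad2 was lower throughout, at 275 ± 36.9 CPM in Z and 225 ± 37.1 CPM in L, which overlapped. Its levels were 131 ± 15.5 CPM in P, 78.2 ± 24.97 CPM in pL and 49.3 ± 9.72 CPM in SG, and those of D and RS lay under its immune cell reading of 29.5 ± 26.4 CPM.

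Sycp1, the transverse filament gene, had the highest level of the 9 members, at 3787 ± 382 CPM in Z and 2266 ± 387 CPM in L. The values were 422, 553, 539.7 and 506 CPM in SG of the 4 mice, 1792, 2723, 2366 and 2183 CPM in L and 3237, 4044, 4047 and 3820.3 CPM in Z, so these stages did not overlap. P at 1212 ± 109 CPM overlapped pL at 1168 ± 200.0 CPM. D at 228 ± 57.5 CPM and RS at 189 ± 41.0 CPM were close to the Sertoli cell reading of 199 ± 70.2 CPM. After each cell was thinned to 2000 UMIs, 98.1% to 100.0% of Z cells per mouse had a Sycp1 UMI, against 27.7% to 38.4% of D cells and 24.0% to 40.0% of Sertoli cells. The shares without thinning were 99.8% to 100.0%, 92.2% to 96.8% and 40.4% to 78.7%, with median depths of 7617 to 10076 UMIs in Z, 44738.5 to 71512 in D and 1979.5 to 8602.5 in Sertoli cells.

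The 4 central element genes did not share a peak stage. Syce2 peaked sharply in L, with 781, 710.4, 787 and 781 CPM in the 4 mice, against 225, 227, 268 and 284 CPM in pL and 265, 195, 260.1 and 267 CPM in Z. Its means in pL, SG and Z, 251 ± 29.6, 249 ± 4.87 and 247 ± 34.5 CPM, overlapped. Tex12, which encodes the partner of SYCE2, also peaked in L at 492 ± 42.0 CPM, but remained at 270.3 ± 20.6 CPM in Z, above 172 ± 25.3 CPM in P and 151 ± 30.9 CPM in pL, which overlapped.

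Syce3, which encodes a small SYCP1-binding protein of the central element, was high in Z at 613 ± 30.2 CPM and in L at 506 ± 45.7 CPM, and again in RS. Its RS levels were 447, 454, 409 and 453 CPM, above D at 222, 150.1, 182 and 184 CPM and above the Sertoli cell reading of 86.6 ± 31.7 CPM. Thinned to 2000 UMIs, 49.4% to 63.6% of RS cells had a Syce3 UMI, against 26.5% to 36.1% of D cells and 12.4% to 29.1% of Sertoli cells.

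Syce1 had the latest peak. It was at 791, 791, 798 and 776 CPM in D, above P at 527 ± 28.0 CPM and RS at 528 ± 21.6 CPM, which overlapped, and L at 372 ± 29.2 CPM. SG, Z and pL lay lower, at 122 ± 18.2, 175 ± 32.6 and 207 ± 22.6 CPM, with SG under the Sertoli cell reading of 128 ± 83.7 CPM. Barcodes with 1 to 100 UMIs, used here to read free RNA, held Syce1 at 540 to 618 CPM in Control mice, above the level in these early stages, and free RNA was estimated at 9.47% to 18.3% of the UMIs of Control SG cells.

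Trip13, the ATPase gene, had the lowest peak of the 9 and was the only member highest before L. Its levels were 75.4, 86.1, 88.9 and 96.9 CPM in SG and 89.2, 102, 85.2 and 92.0 CPM in pL, which overlapped, then 47.9 ± 8.43 CPM in L, 42.2 ± 7.30 CPM in Z and 20.2 ± 1.61 CPM in P. From P on, Trip13 lay under its immune cell reading of 24.2 ± 7.21 CPM.

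**Figure D1:**
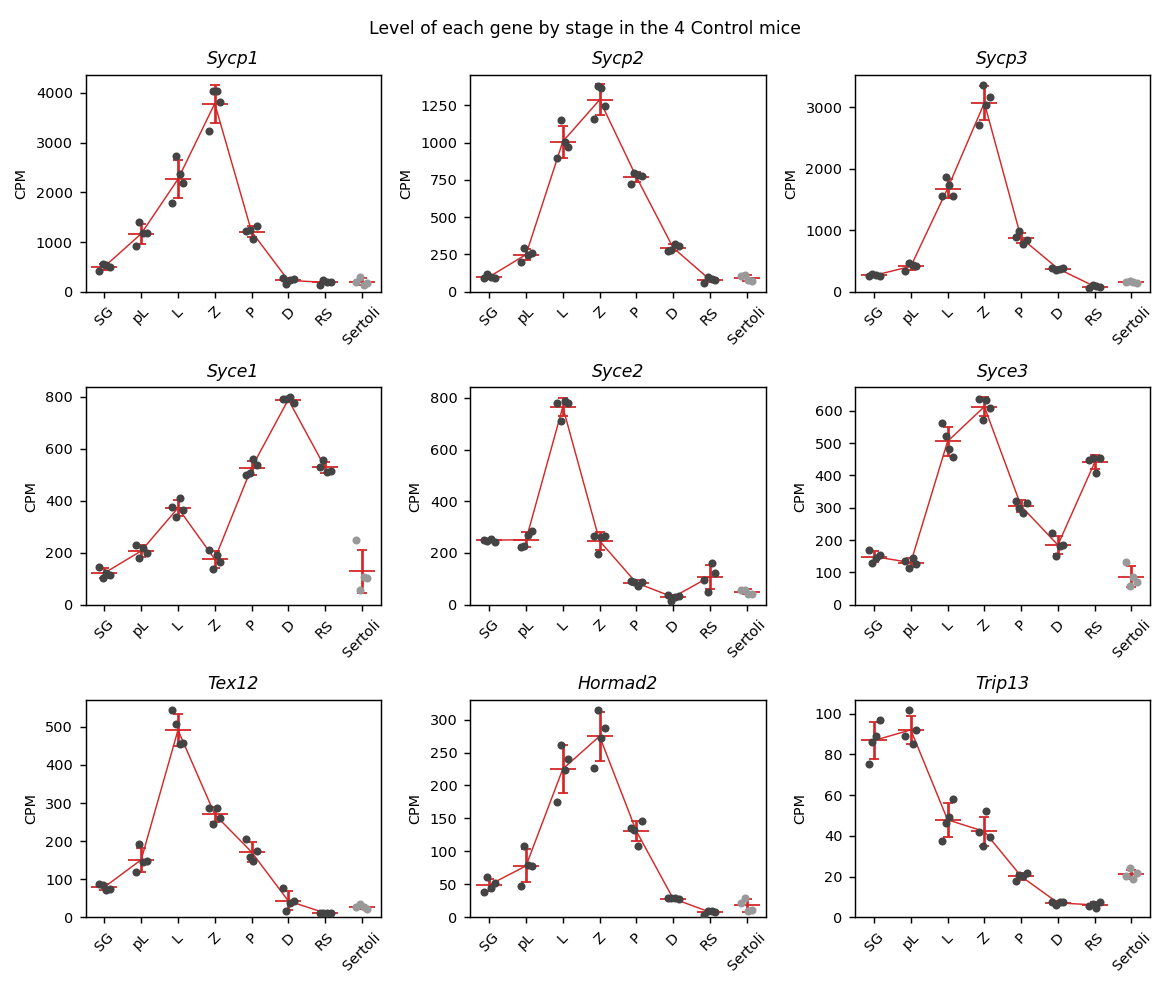
Level of each of the 9 members in CPM (vertical axis) over the stages SG to RS (horizontal axis) in the 4 Control mice, with 1 point per mouse and the mean with its SD. Sycp1, Sycp2, Sycp3, Syce3 and Hormad2 are highest in Z, Syce2 and Tex12 in L, Trip13 in pL and Syce1 in D.

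Steps between neighbouring stages were tested on UMI sums per mouse with edgeR's quasi-likelihood test, with the mouse as a block and Benjamini-Hochberg adjustment over all 19142 genes tested. The stages pL, L and Z were summed for these tests as pL/L/Z. By the somatic readings, Sycp2 and Syce1 in SG, Syce2 and Hormad2 in D, and Trip13 from P on count as background. So do Sycp1, Sycp2, Sycp3, Tex12 and Hormad2 in RS. A step that starts or ends there may be partly one from background. Its size is not taken as that of a change in the germ cells alone. Low expression in the germ cells is not told apart from background this way. Free RNA held Trip13 at 12.7 to 22.1 CPM in Control mice and was estimated at 5.58% to 10.8% of the UMIs of their P cells. These calls compare means, and some levels lie inside the spread of the somatic reading. Hormad2 in D was at 27.4 to 29.4 CPM, with immune cells at 10.5 to 68.5 CPM over the 4 mice. Syce1 in SG was at 104 to 146 CPM, with Sertoli cells at 56.2 to 249 CPM. From SG to pL/L/Z, 7 of the 9 members rose and 1 fell, where 27.9% of all genes rose and 28.9% fell. The log2 fold changes were 3.07 for Sycp2, 2.76 for Sycp3, 2.33 for Sycp1, 1.97 for Hormad2, 1.78 for Tex12, 1.48 for Syce3 and 0.97 for Syce1, with edgeR adjusted p-values from 8.09e-13 to 5.06e-06. Trip13 fell by 0.35 on the log2 scale (edgeR adjusted p = 0.00949). Syce2, at 0.52 (95% interval 0.055 to 0.98), missed the threshold with an edgeR adjusted p of 0.0528, and its rise is limited to L, as given above.

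From pL/L/Z to P, 3 members rose and 4 fell, where 37.0% of all genes rose and 34.9% fell. Syce1 rose by 1.83, Sycp2 by 0.55 and Syce3 by 0.23 on the log2 scale. Syce2 fell by 1.41, Trip13 by 1.08, Sycp1 by 0.40 and Sycp3 by 0.37. The values for Tex12 and Hormad2 were -0.029 and 0.12, and neither passed. This step depended on the scaling, since the median log2 change of all genes was -0.07 with TMM, -0.40 with RLE size factors and -0.57 with cells thinned to 2000 UMIs. Relative to RLE scaling, Syce3 stood at -0.10 in place of 0.23, and thinning turned Sycp2 to -0.19 as well. Without Control replicate 3, or without Control replicate 4, 4 of the 9 members passed in place of 7, as Sycp1, Sycp3 and Syce3 no longer passed.

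From P to D, 8 members fell and Syce1 rose, where 31.4% of all genes fell and 30.1% rose. Sycp1 fell by 2.18, Hormad2 by 1.97, Tex12 by 1.85 and Syce2 by 1.38 on the log2 scale, and Syce1 rose by 0.80 (edgeR adjusted p = 1.86e-07). From D to RS, Syce2 and Syce3 rose by 1.92 and 1.28, and Sycp2, Sycp3, Syce1, Tex12 and Hormad2 fell by 1.87, 2.15, 0.56, 1.74 and 1.79, where 32.8% of all genes rose and 39.4% fell. Hormad2 fell between levels that are both background by the mean immune cell reading, though its D level lies inside the spread of that reading. Sycp1 and Trip13 did not pass in this step. The Syce2 levels in RS, 95.9, 49.9, 162 and 124 CPM in the 4 mice, overlapped those of immune cells at 36.8 to 90.7 CPM.

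The 14 other axis, cohesin and synapsis genes of a fixed list were followed over the same steps. From SG to pL/L/Z, 9 of the 14 rose and 1 fell, among them Hormad1 at 3.13, the meiotic cohesin subunits Stag3 at 1.55, Smc1b at 1.38 and Rec8 at 0.93, the latter at levels under its Sertoli cell reading given below, and Rec114, a factor for double-strand breaks, which fell by 0.40 on the log2 scale. From pL/L/Z to P, 3 rose and 8 fell, with Mei4, another break factor, falling by 5.30 and the cohesin subunit gene Rad21l by 4.06. Both falls end in levels read as background. Mean log2(CPM + 1) in P was 0.80 for Mei4 and 1.19 for Rad21l, under their Sertoli cell readings of 2.32 and 1.28. From P to D 2 rose and 10 fell, and from D to RS 4 rose and 8 fell.

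Over the 14 cell types of the Control mice, log2(CPM + 1) profiles of the 9 members were standardised and averaged. This mean profile was correlated with each member and with 14385 other genes above 20 CPM in at least 1 cell type. Pearson's r with the mean profile, to which each member also contributes, was 0.976 for Sycp1, 0.966 for Tex12, 0.960 for Sycp3, 0.928 for Sycp2, 0.902 for Hormad2, 0.896 for Syce3, 0.876 for Syce2, 0.737 for Trip13 and 0.669 for Syce1. The 10 other genes with the most similar profile were Gm44767 (r = 0.972), Tex30, Ankrd31, Rnf17, Phtf1, Smc1b, Tdrkh, CN725425, Gm17106 and Ccdc172 (r = 0.957). Ankrd31 encodes a factor that sets where double-strand breaks form, Smc1b a meiotic cohesin subunit, and Rnf17 and Tdrkh are Tudor domain genes of the germ line. These are correlations over 14 cell types that share libraries and cells, given as a description.

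**Figure D2:**
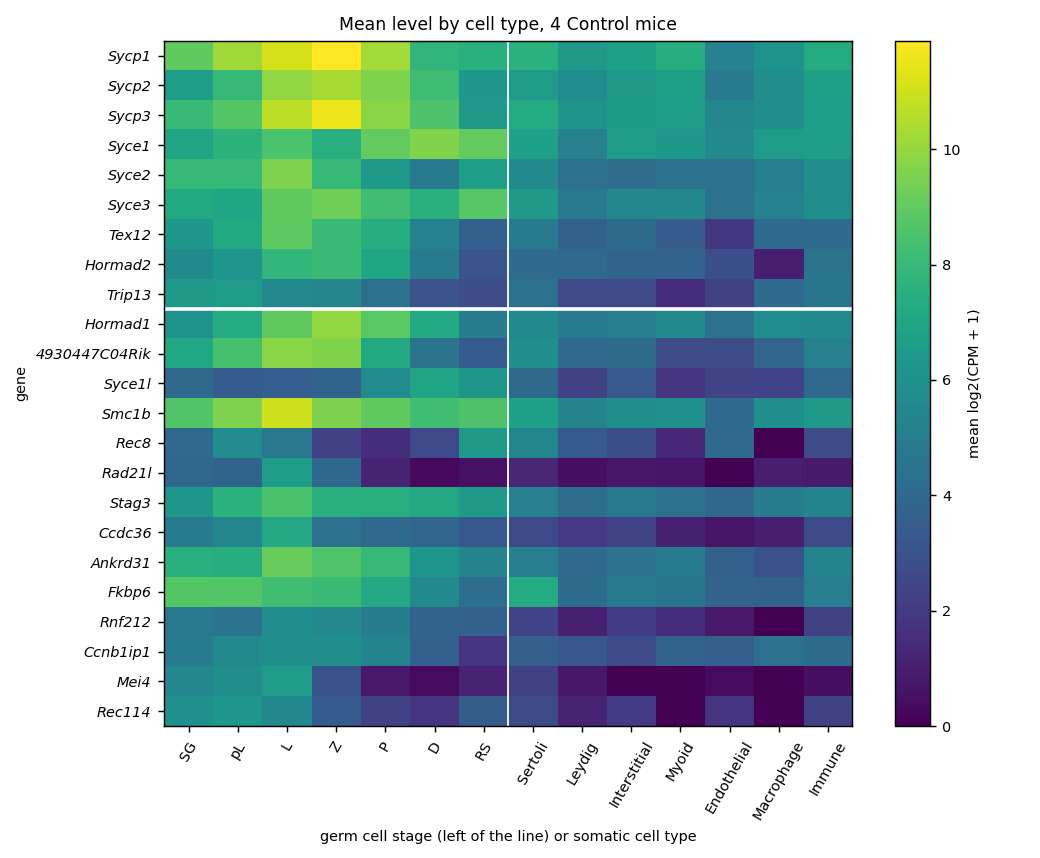
Mean log2(CPM + 1) over the Control mice (colour) of the 9 members, above the white line, and of the 14 other axis, cohesin and synapsis genes, below it, in the 7 germ cell stages and 7 somatic cell types (columns). Each member is highest in L or in Z except Trip13, highest in pL, and Syce1, highest in D.

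To compare genotypes, UMIs were summed per mouse over SG, pL, L and Z cells, the sums the study used, and fitted with edgeR's quasi-likelihood test over all 9 mice. None of the 9 members passed (adjusted p under 0.05) in either cKO. In both comparisons 0.00513% of the 19488 genes tested passed, which is the targeted gene itself, set to 0 by the removal of its cells. At an unadjusted p under 0.05, 3 members were lower in NELF-B cKO, where 6.73% of all genes were lower and 7.51% higher, and 2 were higher in TDP-43 cKO, where 15.3% were lower and 9.22% higher. With no cell left out, 2 other members, Syce1 (-0.45) and Syce3 (-0.30), were lower in TDP-43 cKO at that level, where 16.0% of all genes were, and none was higher. Free RNA held Syce1 at 540 to 618 CPM in Control and 68.0 to 198 CPM in TDP-43 cKO mice. After the removal of cells, its share over SG, pL, L and Z was estimated at 10.2% to 19.2% and 3.40% to 7.13%. The part of free RNA in these 2 values was not tested. DESeq2, run on the same sums, passed Sycp2 and Syce3 as lower in NELF-B cKO and no member in TDP-43 cKO, beside 647 (4.81%) and 2496 of all genes. With germ cells that showed a Nelfb UMI removed from Control mice too, edgeR passed Sycp2 (-1.14) and Syce3 (-1.07) as lower in NELF-B cKO, where 1.93% of all genes passed. That removal took Control SG cells from 273, 374, 415 and 336 to 95, 115, 136 and 104 per mouse. Control Z cells, in which both genes peak, went from 158, 215, 299 and 435 to 91, 131, 199 and 282. The share of Z cells thus rose in Control alone, and the part of this mix in the values was not tested. Without cluster 18, a Z cluster of mostly TDP-43 cKO cells, edgeR passed Sycp2 (-0.61) and Sycp3 (-0.64) as lower and Trip13 (0.26) as higher in TDP-43 cKO, where 10.6% of all genes passed. Before the removal of cells, that cluster held 657 TDP-43 cKO and 17 Control cells, so leaving it out lowers the share of Z cells, in which Sycp2 and Sycp3 peak, far more in TDP-43 cKO than in Control. In Z by cluster without it, no member passed or reached an unadjusted p under 0.05 in TDP-43 cKO (smallest edgeR adjusted p = 0.558). Of all 11058 genes tested there, 1 passed, Tardbp itself, and 9.87% reached an unadjusted p under 0.05. That fit rests on 2 TDP-43 cKO mice with 49 and 43 Z cells, as replicate 1 had 7, so it can miss differences and does not settle the calls above. Both cKO were compared with the same 4 Control mice, so these comparisons are not independent. Where groups are said below not to overlap, the share of all genes without overlap was not counted.

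Syce3 had the lowest unadjusted p of the 9 members in NELF-B cKO. In these sums it was at 266, 225, 258 and 303 CPM in Control replicates 1 to 4 and at 160.2 and 172 CPM in the 2 NELF-B cKO mice, so the groups did not overlap. The log2 fold change was -0.68 (95% interval -0.97 to -0.40, edgeR adjusted p = 0.141). In the 3 TDP-43 cKO mice Syce3 was at 224, 214 and 214 CPM, each below the lowest Control mouse, with a log2 fold change of -0.21 (95% interval -0.46 to 0.030). Free RNA held Syce3 at 264 to 346 CPM in Control mice, at 272 and 134 CPM in NELF-B cKO mice and at 132 to 227 CPM in TDP-43 cKO mice. With free RNA subtracted, the NELF-B cKO value was -0.66 (edgeR adjusted p = 0.0967).

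Sycp2 was at 357, 417, 429 and 522 CPM in Control and 333 and 263 CPM in NELF-B cKO over the same cells, without overlap, a log2 fold change of -0.55 (95% interval -0.91 to -0.20, edgeR adjusted p = 0.224). Sycp1 was at 1129, 1382, 1435 and 1689 CPM and 1152 and 1034 CPM, which overlapped, a log2 fold change of -0.38 (95% interval -0.74 to -0.025). Both genes peak in Z, and Z cells were 31.3% to 53.6% of the pL, L and Z cells in Control mice, 16.5% and 36.4% in NELF-B cKO mice and 12.3% to 39.0% in TDP-43 cKO mice. The part of this mix in these values was not tested by itself, and narrower stages are given below. The other 6 members lay between -0.35 (Syce1) and 0.17 (Trip13) in NELF-B cKO.

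In TDP-43 cKO, Syce2 was at 374, 320.1 and 324 CPM over SG, pL, L and Z cells, each above the Control mice at 286, 268, 308 and 313 CPM, a log2 fold change of 0.27 (95% interval 0.047 to 0.49, edgeR adjusted p = 0.136). Trip13 was at 86.0, 83.5 and 78.8 CPM against 71.1, 77.4, 78.3 and 76.5 CPM, also without overlap, a log2 fold change of 0.19 (95% interval 0.017 to 0.36, edgeR adjusted p = 0.167). The other 7 members lay between -0.25 (Sycp2) and 0.29 (Tex12). In the direct comparison of TDP-43 cKO with NELF-B cKO, no member passed, where 0.128% of all genes did, and 3 members were higher in TDP-43 cKO at an unadjusted p under 0.05, where 8.34% of all genes were. These were Tex12 at 0.59, Syce3 at 0.47 and Syce2 at 0.37 on the log2 scale, with edgeR adjusted p-values of 0.198, 0.161 and 0.198.

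In pL/L/Z, the stages in which the complex is assembled, no member passed in NELF-B cKO, where 0.00651% of the 15372 genes tested did. At an unadjusted p under 0.05 1 member of 9 was lower, where 6.73% of all genes were. This was Syce3, at 217 and 313 CPM against 350.0, 389, 386 and 427 CPM in Control, a log2 fold change of -0.56 (95% interval -0.93 to -0.20, edgeR adjusted p = 0.168). DESeq2 passed Syce3 and no other member, beside 557 of all genes (4.39%). The 9 values had a median of -0.10, against -0.03 over all genes.

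In TDP-43 cKO, 1.76% of the genes passed in pL/L/Z and none of the 9 members did. At an unadjusted p under 0.05, 2 members were higher, where 26.3% of all genes reached that level in either direction. All 9 values were above 0 (7 of 9 with no cell left out), with a median of 0.25 against 0.01 over all genes. Syce2 was at 586, 416 and 403 CPM against 317, 303, 368 and 370.3 CPM in Control, a log2 fold change of 0.57 (95% interval 0.21 to 0.93, edgeR adjusted p = 0.0673). Tex12 was at 485, 308 and 305 CPM against 231, 274, 258 and 263 CPM, a log2 fold change of 0.62 (95% interval 0.16 to 1.07, edgeR adjusted p = 0.0939). Neither gene overlapped between the groups, TDP-43 cKO replicate 1 was the highest for both, and L cells, in which both genes peak, were 42.1%, 26.9% and 33.3% of the pL, L and Z cells of the 3 TDP-43 cKO mice, each above the 18.7% to 22.7% of Control mice. The part of this mix in the values was not tested by itself. DESeq2 passed both genes as higher, beside 2043 of all genes (13.3%). Of the Z cells given to cluster 18, 90.9% came from TDP-43 cKO mice before the removal of cells, and without that cluster edgeR passed Syce2 (0.74) and Tex12 (0.75), where 10.2% of all genes passed as higher and 11.7% as lower. Taken in both directions, that is 2 of 9 members beside 21.8% of all genes, in sums whose share of L cells, where both genes peak, is raised by leaving out Z cells of TDP-43 cKO.

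Of the other list, Rec8 alone passed in pL/L/Z of TDP-43 cKO, at 12.8, 15.6 and 9.04 CPM against 26.9, 32.4, 29.4 and 23.9 CPM in Control, and fell by 1.07 on the log2 scale (edgeR adjusted p = 0.0485). In pL, L and Z taken singly, as described below, Rec8 had values of -1.18, -1.48 and -0.90 and did not pass (edgeR adjusted p = 0.0801, 0.078 and 0.308). Sertoli cells of the Control mice read Rec8 at 35.8 to 49.1 CPM, above each of the summed pL/L/Z levels, which count as background by the reading used above. That reading does not cover pL alone. The Control mean of log2(CPM + 1) for Rec8 was 5.72 in pL, above 5.46 in Sertoli cells, and 4.75 in L and 2.32 in Z. REC8 is a meiotic cohesin subunit. Hormad1, Rad21l, Rec114, Ccdc36 and Smc1b had values of 0.68, 0.85, 0.74, 0.62 and 0.48 and did not pass, with edgeR adjusted p-values from 0.0518 (Rad21l) to 0.0738 (Hormad1). Without cluster 18, 7 of the 14 passed as higher and 2 as lower in pL/L/Z of TDP-43 cKO. Of all genes, 10.2% passed as higher and 11.7% as lower there, in sums with the changed mix of stages given above. No gene of that list passed in NELF-B cKO in pL/L/Z. In L taken singly, 1 of the 14 passed as lower, where 3.01% of all genes passed in either direction, and none passed in pL or Z.

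In SG, before meiotic entry, no member passed in NELF-B cKO (0.0165% of 18172 genes passed) or in TDP-43 cKO (0.0055%). Sycp3 was at 399 and 319 CPM in NELF-B cKO against 249.9, 287, 275 and 249 CPM in Control, without overlap, a log2 fold change of 0.45 (95% interval 0.19 to 0.70, edgeR adjusted p = 0.2). DESeq2 passed Sycp3 as higher, beside 2.28% of all genes. Without NELF-B cKO replicate 2, a fit in which the 1 mouse left is assumed to vary like those of the other groups, edgeR passed it beside 443 of all genes (2.32%). Syce3 was at 111 and 109 CPM against 169, 128, 143 and 154 CPM, also without overlap, a log2 fold change of -0.42 (95% interval -0.71 to -0.14, edgeR adjusted p = 0.252). In TDP-43 cKO, Syce2 was at 280.5, 270.3 and 282 CPM against 249.9, 248, 256 and 244 CPM, a log2 fold change of 0.20 (edgeR adjusted p = 0.121), and DESeq2 passed it as higher, beside 9.12% of all genes. Tex12 in TDP-43 cKO was at 135, 100.5 and 86.3 CPM against 87.8, 85.1, 71.4 and 75.2 CPM, which overlapped, a log2 fold change of 0.48 (edgeR adjusted p = 0.158). SG joins clusters 3, 7 and 21, whose mix differed between mice before the removal of cells. Cluster 3 held 158, 256, 232 and 176 Control, 472 and 246 NELF-B cKO and 270, 553 and 631 TDP-43 cKO cells. Cluster 7 held 79, 111, 149 and 120, then 97 and 194, then 425, 363 and 420. The part of this mix in the SG values was not tested.

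**Figure D3:**
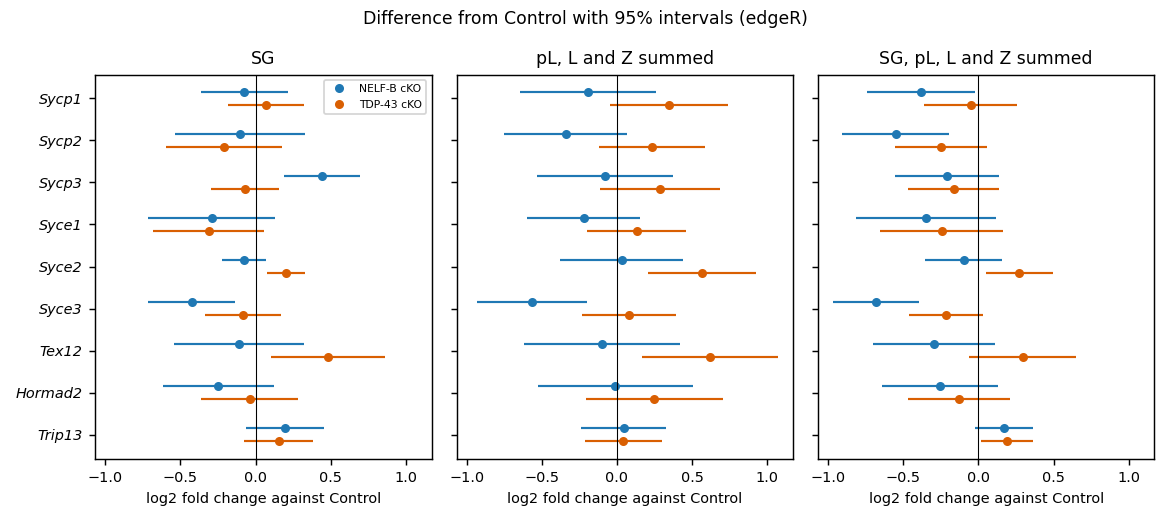
Log2 fold change of each member against Control (horizontal axis) with its 95% interval, for NELF-B cKO and TDP-43 cKO, over SG, pL, L and Z summed, in pL/L/Z and in SG. No member passed the adjusted threshold in any panel, and Syce3 in NELF-B cKO lies between -0.68 and -0.42 in all of them.

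For narrower stages, each germ cell, of cKO and Control mice alike, took the stage most frequent among its nearest Control cells in the space of the other genes, so the Control levels given here are not those given by cluster. In pL, L and Z taken this way, none of the 9 members passed in either cKO. The shares of all genes that passed were 0.306%, 3.01% and 1.28% in NELF-B cKO and 0.0149%, 0.0271% and 8.92% in TDP-43 cKO. In NELF-B cKO, 1 member was lower and 1 higher at an unadjusted p under 0.05 in pL, 1 lower and 1 higher in L, and 3 lower in Z. Of all genes, 7.23% were lower and 7.9% higher in pL, 8.63% lower and 10.4% higher in L, and 8.17% lower in Z. In TDP-43 cKO, 4 members were higher in pL, 3 in L and 2 in Z at that level, where 7.38%, 7.99% and 11.6% of all genes were.

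Syce3 in Z was at 327 and 471 CPM in the NELF-B cKO mice against 642, 581, 634 and 612 CPM in Control, without overlap, a log2 fold change of -0.70 (95% interval -1.15 to -0.26, edgeR adjusted p = 0.113). Syce1 in Z was at 142 and 92.7 CPM against 214, 136, 187 and 164 CPM, which overlapped, a log2 fold change of -0.66 (edgeR adjusted p = 0.133). Free RNA held Syce1 at 485 and 125 CPM in these NELF-B cKO mice and at 540 to 618 CPM in Control mice. In Z by cluster, free RNA was estimated at 13.9% and 8.09% of UMIs in NELF-B cKO and 13.3% to 22.9% in Control. The part of free RNA in this Syce1 value was not tested. Sycp3 in pL was at 661 and 630.2 CPM in NELF-B cKO and 695, 491 and 442 CPM in TDP-43 cKO, against 338, 465, 438 and 403 CPM in Control. The log2 fold changes were 0.65 (95% interval 0.23 to 1.07) and 0.45 (95% interval 0.067 to 0.83), with edgeR adjusted p-values of 0.162 and 0.172. The axis gene Sycp3 stood above the Control mean in SG, pL and L of both NELF-B cKO mice, and at 2919.6 and 2956 CPM in Z against 2687, 3334, 3071 and 3108 CPM in Control, where the groups overlapped.

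Syce2 in Z of TDP-43 cKO was at 506, 314 and 286 CPM against 283, 207, 250.3 and 277 CPM in Control, a log2 fold change of 0.58 (95% interval 0.18 to 0.98, edgeR adjusted p = 0.0685). The highest of the 3 values came from replicate 1. With Z taken by cluster, Syce2 was at 300.1, 267 and 261 CPM against 265, 195, 260.1 and 267 CPM, which overlapped, a log2 fold change of 0.24 (95% interval -0.04 to 0.53, edgeR adjusted p = 0.251). The nearest Control cells placed 123 TDP-43 cKO cells and 31 Control cells of the L cluster in Z, counted before the removal of cells, and Syce2 is highest in L. Sycp1 was at 4373, 4201 and 4555 CPM in these cells against 3233, 4034, 4086 and 3784 CPM, also without overlap, a log2 fold change of 0.28 (95% interval 0.053 to 0.52, edgeR adjusted p = 0.12), and of 0.26 with Z taken by cluster. In NELF-B cKO Sycp1 in Z was at 2990.4 and 3421 CPM, a log2 fold change of -0.32 (edgeR adjusted p = 0.211).

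**Figure D4:**
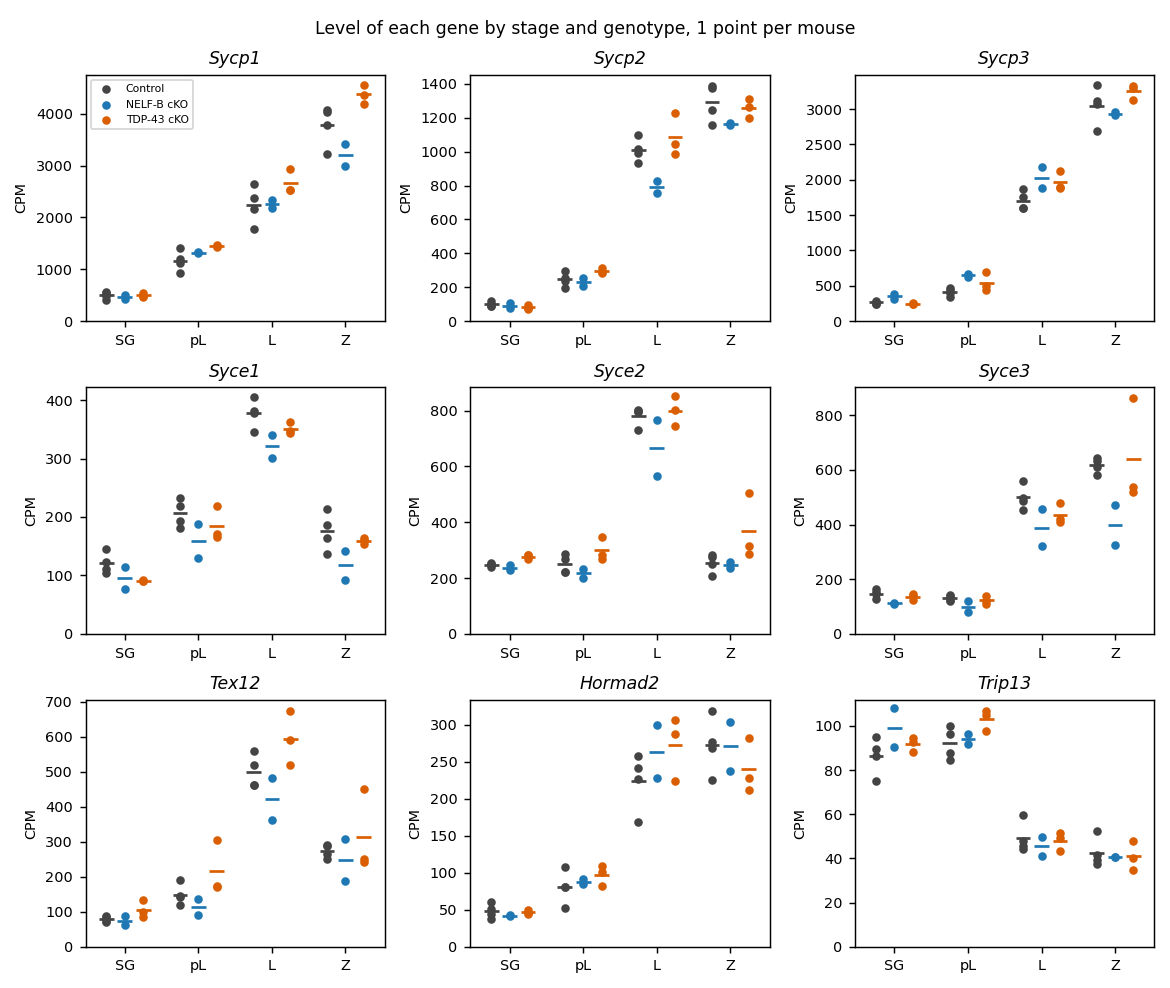
Level of each of the 9 members in CPM (vertical axis) in SG, pL, L and Z of every mouse, coloured by genotype, with stages taken from the nearest Control cells and a short line at the mean of each genotype. The peak of Syce2 in L and the rise of Sycp1, Sycp2 and Sycp3 from SG to Z are seen in all 9 mice, and Syce3 in Z of the NELF-B cKO mice, at 327 and 471 CPM, lies below the other mice.

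The rise of the members at meiotic entry was compared between genotypes as an interaction of stage and genotype, with the mouse as a block. Within each genotype, 8 members rose and Trip13 fell from SG to pL/L/Z in this fit, which spans all 9 mice and in which Syce2 also passed in Control. Of all genes, 27.9%, 22.0% and 29.2% rose and 32.2%, 23.4% and 29.9% fell in Control, NELF-B cKO and TDP-43 cKO. Sycp2, the member with the largest rise, rose by 3.07 in Control, 2.90 in NELF-B cKO and 3.56 in TDP-43 cKO on the log2 scale. Its SG level, from which the rise starts, is read as background. No difference of a member's rise from that in Control passed, where 0.0107% of the 18614 genes passed in NELF-B cKO and 0.365% in TDP-43 cKO. At an unadjusted p under 0.05 no member differed in NELF-B cKO, and the differences of Syce1, Sycp2 and Syce2 were above 0 in TDP-43 cKO, where those of 11.1% of all genes were, with a median over all genes of 0.08. The difference for Syce1 was 0.47 (95% interval 0.18 to 0.75, edgeR adjusted p = 0.118), from SG levels that count as background, with Syce1 free RNA at 540 to 618 CPM in Control and 68.0 to 198 CPM in TDP-43 cKO mice and a share of free RNA in SG of 9.47% to 18.3% and 3.25% to 6.74%. The intervals of the 9 differences reached from -0.98 to 0.66 in NELF-B cKO and from -0.41 to 0.95 in TDP-43 cKO, so changes of that size could have been missed.

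Later stages held few cKO cells. Control mice had 159 to 523 P cells and 180 to 348 D cells each, the NELF-B cKO mice 155 and 32 P cells and 293 and 7 D cells, and the TDP-43 cKO mice 0, 4 and 1 P cells and 1, 10 and 10 D cells after the removal of cells with a Tardbp UMI. In P of NELF-B cKO, no member passed or reached an unadjusted p under 0.05, where 0.00616% of all genes passed. The values lay between -0.31 for Sycp1 (95% interval -1.28 to 0.65) and 0.14 for Sycp3 (95% interval -0.38 to 0.65), and the 2 mice stood apart, at 423 and 1579 CPM for Sycp1 and 38.0 and 186 CPM for Hormad2. P joins clusters 14 and 15, which before the removal of cells held 16 and 157 cells of NELF-B cKO replicate 1 and 29 and 8 of replicate 2. Control mice had 104, 196, 155 and 312 cells in cluster 14 and 55, 185, 160 and 211 in cluster 15. The part of this mix in the values was not tested. In D of TDP-43 cKO, a fit that rests on 2 mice with 10 cells each, no member passed where 6.94% of all genes did, and Sycp3 and Syce1 were lower at an unadjusted p under 0.05, by values of -0.32 and -0.28, where 13.4% of all genes were lower.

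With no cell left out, 4, 133 and 94 P cells and 4, 59 and 52 D cells of the TDP-43 cKO mice remained, and both stages were fitted without replicate 1. Tardbp was at 105, 119 and 116 CPM in these P cells against 131 to 161 CPM in Control mice, and at 45.3, 49.9 and 56.2 CPM in these D cells against 48.8 to 77.3 CPM, with log2 fold changes of -0.31 and -0.42 that did not pass (edgeR adjusted p = 0.882 and 0.912). Most of these cells carried a Tardbp UMI, so their levels are those of cells labelled TDP-43 cKO in which the targeted transcript was still read. No member passed in P (0.00654% of all genes) or in D (0.0%), and Trip13 in D was the only one at an unadjusted p under 0.05, at 0.49, where 3.87% of all genes were higher. In P, Sycp1 was at 1608, 1268 and 1460.2 CPM against 1213, 1243, 1066 and 1327 CPM in Control, and Sycp3 at 1012, 909 and 1037 CPM against 897, 982, 773 and 849.8 CPM. Syce1 in D was at 909, 753 and 745 CPM against 791, 791, 798 and 776 CPM. The ranges of the groups overlapped for these 3 values. With the removal, RS of both cKO and D of NELF-B cKO had 10 cells in only 1 mouse, and no test was made. With no cell left out, D of NELF-B cKO held 305 and 10 cells, and no member passed where 0.106% of all genes did. At an unadjusted p under 0.05 Sycp1 was lower (-0.81, edgeR adjusted p = 0.285), where 3.69% of all genes were, and Sycp3 higher (0.25, edgeR adjusted p = 0.416), where 5.49% were.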

How the data were processed

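Whole testes of 9 mice were profiled with 10x 3′ single cell RNA-seq. The deposited values are raw UMI counts of each gene in each barcode, produced by the authors with Cell Ranger (6.1.1 and 7.0.0 in the submitters' processing notes, while the file headers name Cell Ranger 4) on mm10, before any selection of cells and without normalization. Samples were grouped by their titles. The members and gene lists were chosen with earlier results of these data known.

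Barcodes past a filter (more than 1000 genes, mitochondrial share below 10%) were clustered with scanpy 1.11.5 and leidenalg 0.10.2 (3000 genes, 40 principal components, 20 neighbours, resolution 0.8, seed 7), without the 9 members, the other list, Nelfb and Tardbp. Clusters were named from fixed markers, with at least 3 of them raised 2-fold. The limits of a median of 2000 UMIs, of 80% of cells from 1 mouse, and of a share of 0.5 of the own mouse's median UMIs were set once the clusters were known. A doublet caller marked 74 cells (0.297%), too few for it to have worked, and no doublets were removed. Each pair of mice shared 1 to 24 of these barcodes.

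UMIs were summed per mouse and stage, over at least 10 cells, and tested with edgeR 4.0.16 (filterByExpr, TMM, glmQLFTest, two-sided) in R 4.3.3, in place of the DESeq2 1.36 of the authors. DESeq2 1.42.0 was an alternative. A gene passed at an adjusted p under 0.05. At the study's thresholds (adjusted p under 0.01, log2 fold change of at least 1) 0 members passed in any genotype comparison. The fits were tested on simulated data, of which no outcome is given here. CPM scales UMIs to 1000000 per stage and mouse. Intervals are 95%. Named genes are the 9 members, the list of 14 other genes and the 10 genes with the most similar profile. Labels name separate mice, so the spread is between animals. All per-sample columns were used. No protein sequences were at hand.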

Additional observations from a re-analysis of the deposited data

Results flagged for a closer look

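In 3 of 63 groups of 4 Control mice, 1 mouse stood apart from the other 3 by Dixon's ratio at its 95% level, where chance gives about 1 in 20. Syce2 in L was at 710 CPM in Control replicate 2, below the next mouse at 781 CPM and the highest at 787 CPM. Syce2 in Z was at 195 CPM in the same mouse, below 260 and 267 CPM. Syce3 in RS was at 409 CPM in Control replicate 3, below 447 and 454 CPM. The cause was not tested in these cases.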

How the results depend on the processing

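Each count of members was recomputed under other settings, of which DESeq2, RLE size factors, no filter on low counts, the same removal of cells in Control mice, subtraction of free RNA and leaving out 1 mouse at a time were planned, and the Z cluster left out and Z taken by cluster were chosen after seeing the data. Against 0 members in the main comparisons over SG, pL, L and Z, DESeq2 passed 2 in NELF-B cKO (Sycp2, Syce3), as did the removal of cells in Control mice too (2, at -1.14 and -1.07), and leaving out the Z cluster of mostly TDP-43 cKO cells passed 3 in TDP-43 cKO (Sycp2 and Sycp3 lower, Trip13 higher). As given above, the removal in Control mice raised their share of Z cells, and leaving out the Z cluster lowered that of TDP-43 cKO. In pL/L/Z, DESeq2 passed 1 in NELF-B cKO (Syce3) and 2 in TDP-43 cKO (Syce2, Tex12). In TDP-43 cKO 1 passed without the filter (Syce2), where 5.85% of all genes did. With the removal in Control mice too 1 passed (Sycp3, 0.75), where 4.4% of all genes did. With free RNA subtracted 1 passed (Syce1, 0.61), where 2.17% did, and without the Z cluster 2, where 21.8% did. Each of these members was higher. Leaving out 1 mouse changed the count only without NELF-B cKO replicate 1 or without replicate 2. Those fits leave 1 NELF-B cKO mouse, and more of all genes passed in them too. In SG, DESeq2 passed 1 in each cKO (Sycp3, Syce2), and leaving out 1 mouse gave 0 to 1 in NELF-B cKO. The 1 (Sycp3, beside 443 of all genes) came without its replicate 2, a fit that leaves 1 NELF-B cKO mouse, which is assumed to vary like the mice of the other groups. In the step from pL/L/Z to P, leaving out 1 mouse gave 4 to 7, with 4 without Control replicate 3 or 4 against 7, and the sign turned for Syce3 with DESeq2 (-0.10), RLE size factors (-0.10) and thinned cells (-0.53), and for Sycp2 with thinned cells (-0.19). The cause of these shifts was not tested beyond the median shift of all genes given above. For Sycp3 in pL/L/Z of TDP-43 cKO, the removal of cells in Control mice left them 29, 38, 43 and 63 Z cells of 146, 108, 184 and 193. Without it they had 158, 215, 299 and 435 of 504, 412, 713 and 812. The share of Z cells, where Sycp3 peaks, thus fell in Control alone, and the part of this mix was not tested. Other counts of members given above stayed within 1.5 times. Of 1233 single values of members between genotypes, 21 newly passed, and as none passed in the main comparisons no call could be lost or turned there. The number of all genes passing moved more than that of the members, from 1 to 647 in NELF-B cKO and from 1 to 2496 in TDP-43 cKO over SG, pL, L and Z with DESeq2, and from 271 to 3316 in pL/L/Z of TDP-43 cKO without the Z cluster. Deviations of same-numbered mice had r from -0.42 to 0.38 over pairs, which cannot decide whether the numbers pair the mice. The 2 NELF-B cKO mice mirror each other in this measure, as at 0.384 and -0.384 against Control replicate 1. With the number as a replicate block 0 members passed in the 4 comparisons run, with 1 of all genes in pL/L/Z of TDP-43 cKO in place of 271. Depth limits Trip13 and Hormad2 most, with 689 to 1686 and 795 to 2244 UMIs per mouse over SG, pL, L and Z.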

Other observations

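Among clusters left without a name, 1 with 1765 cells was nearest to P by its markers and 2 with 1257 and 750 cells were nearest to RS. They held 281, 443, 347 and 361, then 533, 70, 284 and 159, then 158, 183, 153 and 109 cells of Control replicates 1 to 4, and the P and RS levels given above leave them out. With 3, 8 and 4 raised markers they met the marker limit, and they were left without a name because their median UMIs, 0.303, 0.365 and 0.382 of those of their own mice, lay under the limit of 0.5, which was set once the clusters were known, with none of their markers among the leading genes.

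Within Z, the members were also read per cluster, as sums over all cells of a genotype without a test, before the removal of cells with a Nelfb or Tardbp UMI. In cluster 18, which held 657 TDP-43 cKO cells, 49 NELF-B cKO cells and 17 Control cells, Sycp1 was at 4433 CPM in TDP-43 cKO and 2797 CPM in NELF-B cKO, and Syce3 at 499 and 313 CPM. In cluster 9, which held 1090 Control cells, 316 TDP-43 cKO cells and 259 NELF-B cKO cells, Sycp1 was at 4164 CPM in TDP-43 cKO, 3483 CPM in NELF-B cKO and 3840 CPM in Control, and Syce3 at 572, 449.5 and 613 CPM. The 17 Control cells of cluster 18 had Sycp1 at 4210 CPM and Syce3 at 537 CPM. In both clusters the NELF-B cKO sum was the lowest of the 3 genotypes for Sycp1 and Syce3. Other members did not all share this order. In cluster 18 NELF-B cKO was the highest of the 3 for Syce2 (318 CPM) and Hormad2 (328 CPM). In cluster 9 NELF-B cKO was the highest for Tex12 and Trip13. The order in cluster 18 rests on few Control and NELF-B cKO cells.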
